A study of Bos taurus with 20 samples.

Results

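PIR, GALM, MUC15 and SPADH1 are 4 of the 9156 genes named on the array, and they were chosen by earlier results of these data: their log2 signals had been lower in E. coli challenged, not treated glands of the cow's udder than in glands without challenge, and higher again in treated glands. By mean, the pattern holds for the brightest probe sets of GALM, MUC15 and SPADH1 at both time points and for that of PIR at 24 h. At 48 h the mean of PIR was 9.11 in glands without challenge and 9.05 in challenged, not treated glands, with cows in opposite directions. Since it chose the genes, their contrasts with the not treated glands, calls included, are a description here and support nothing. The question left to these data was whether the treated glands stood at the level of the not challenged gland of the same cow, above it or below it. All probe sets that the array's annotation gives to these symbols were taken, which are 8 of the 24128 probe sets of the Affymetrix Bovine Genome Array. PIR and MUC15 have 3 each, called a, b and c here from the brightest to the dimmest, and GALM and SPADH1 have 1 each; a gene named without a letter is given by its brightest.

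The cows were Holstein Friesians in mid lactation, and 3 of the 4 glands of each udder received 100 CFU of E. coli. The gland left without bacteria is NC, the challenged gland without treatment is CNT, the challenged gland that received 300 mg of cefapirin, a cephalosporin antibiotic, is CF, and the challenged gland that received 300 mg of cefapirin with 20 mg of prednisolone, a glucocorticoid, is CFPD. Cows 4 and 5 were sampled at 24 h post challenge, after 2 infusions at 4 and 12 h, and cows 1, 2 and 3 at 48 h, after further infusions at 24 and 36 h. Each of the 20 glands gave 1 array, so there were 2 arrays per group at 24 h and 3 at 48 h, each from a separate animal. NC was the right front and CNT the left front gland in every cow, and CF and CFPD were always rear glands. Position and group therefore cannot be told apart for NC against CNT, nor for treated glands against NC or CNT. By the labels CFPD was the left rear gland in cows 2 and 5 and the right rear gland in the others, and an earlier reading of these data put in doubt which of the treated glands of cows 2 and 5 was CF and which CFPD. Values of both treatments together do not depend on this. All 4 glands belonged to 1 animal, so an NC gland was not free of what the infection of the other glands did to the cow. The labels place the samples in the cisternal region and the study's methods in the mid parenchyma.

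The values are log2 signals, in which a difference of 1 is a doubling, and array medians ran from 7.13 to 7.31. Signals of different probe sets are not compared, since each has its own affinity. Milk protein RNA, which marks the lactating secretory epithelium, stood near the top of the scale in all groups: the mean of 8 genes ran from 14.92 to 15.25 over the 20 glands, against a highest single value of 15.60. The 8 neutrophil marker genes averaged 9.25 to 11.40 in CNT glands and 6.70 to 7.74 in all others. In tissue that takes up so many leukocytes, fewer cells of a type and less RNA per cell cannot be told apart, and this holds for each difference between CNT and other glands below.

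The lactating gland makes milk in alveoli lined by secretory epithelial cells, which release casein and lactose by exocytosis and fat as globules wrapped in their own apical membrane. GALM, galactose mutarotase, interconverts the anomers of galactose ahead of the Leloir pathway. MUC15 is a heavily glycosylated membrane mucin that is found in bovine milk on the fat globule membrane. SPADH1 encodes a spermadhesin, a small secreted protein built around a CUB domain and known best from seminal plasma. PIR, pirin, is an iron-binding nuclear protein of the cupin family that acts as a cofactor of NF-kB and is a target gene of NRF2, the main transcription factor of the antioxidant response.

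GALM showed the widest gap between CNT and NC glands that was present in every cow. In the order NC, CNT, CF and CFPD, its log2 signal was 12.86, 9.97, 12.52 and 12.69 in cow 4 and 11.87, 10.05, 12.16 and 12.04 in cow 5 at 24 h. At 48 h it was 12.64, 11.48, 12.63 and 12.72 in cow 1, 12.63, 10.20, 11.76 and 11.97 in cow 2, and 12.64, 11.32, 12.57 and 12.20 in cow 3. CNT glands were the lowest of their cow in 5 of 5 cows, and the highest CNT value, 11.48, lay below the lowest value of any other gland, 11.76. The mean difference between CNT and NC glands was -2.35 at 24 h (SE 0.36, n = 2 cows) and -1.64 at 48 h (SE 0.34, n = 3 cows). These SEs, and all others given for 1 time point, come from a limma fit of all groups of that time point without the cow. They do not measure how the difference within a cow spread over the cows. All 10 treated glands stood above the CNT gland of their cow, but only 3 of 10 stood above its NC gland.

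MUC15 is given first by its brightest probe set, a. Its log2 signal in NC, CNT, CF and CFPD glands was 13.66, 12.04, 13.69 and 13.68 in cow 4 and 13.26, 12.55, 13.58 and 13.63 in cow 5. At 48 h it was 13.82, 12.76, 13.82 and 13.79 in cow 1, 13.59, 11.94, 12.94 and 13.06 in cow 2, and 13.54, 13.26, 13.68 and 13.21 in cow 3. CNT was below NC in each cow, by -0.28 in cow 3 and by -1.66 in cow 2 at the extremes, and the groups overlapped: the CNT gland of cow 3, at 13.26, stood above its own CFPD gland and above both treated glands of cow 2. The mean difference between CNT and NC was -1.16 at 24 h (SE 0.22) and -0.998 at 48 h (SE 0.33).

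SPADH1 differed most between CNT and NC glands at 48 h. Its log2 signal in NC, CNT, CF and CFPD glands was 11.59, 9.41, 11.79 and 12.37 in cow 1, 11.23, 9.28, 11.32 and 11.12 in cow 2, and 10.90, 9.21, 11.15 and 10.80 in cow 3. At 24 h it was 11.00, 8.78, 10.73 and 10.40 in cow 4 and 10.78, 9.93, 10.28 and 10.44 in cow 5. Every CNT gland lay below every gland of the other groups, and the smallest gap to NC, -0.85, was that of cow 5. The mean difference between CNT and NC was -1.54 at 24 h (SE 0.36) and -1.94 at 48 h (SE 0.35). CF and CFPD glands of cow 1 exceeded the NC glands of all cows.

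PIR followed the others at 24 h but not at 48 h. Probe set a read 12.12, 9.79, 12.07 and 11.86 in cow 4 and 12.56, 10.36, 12.34 and 11.90 in cow 5 in NC, CNT, CF and CFPD glands. At 48 h it read 8.36, 9.15, 8.56 and 8.69 in cow 1, 8.70, 8.80, 9.79 and 9.39 in cow 2, and 10.28, 9.19, 9.44 and 10.26 in cow 3. The CNT gland was thus the lowest of the cow in both cows of 24 h and in cow 3, was the highest in cow 1, and stood 0.10 above NC in cow 2. The mean difference between CNT and NC was -2.26 at 24 h (SE 0.24) and -0.07 at 48 h (SE 0.51), so a lower level in CNT than in NC glands described PIR at 24 h and in 1 of 3 cows at 48 h. Without cow 3 its difference at 48 h was 0.45, and without cow 1 it was -0.50.

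**Figure D1:**
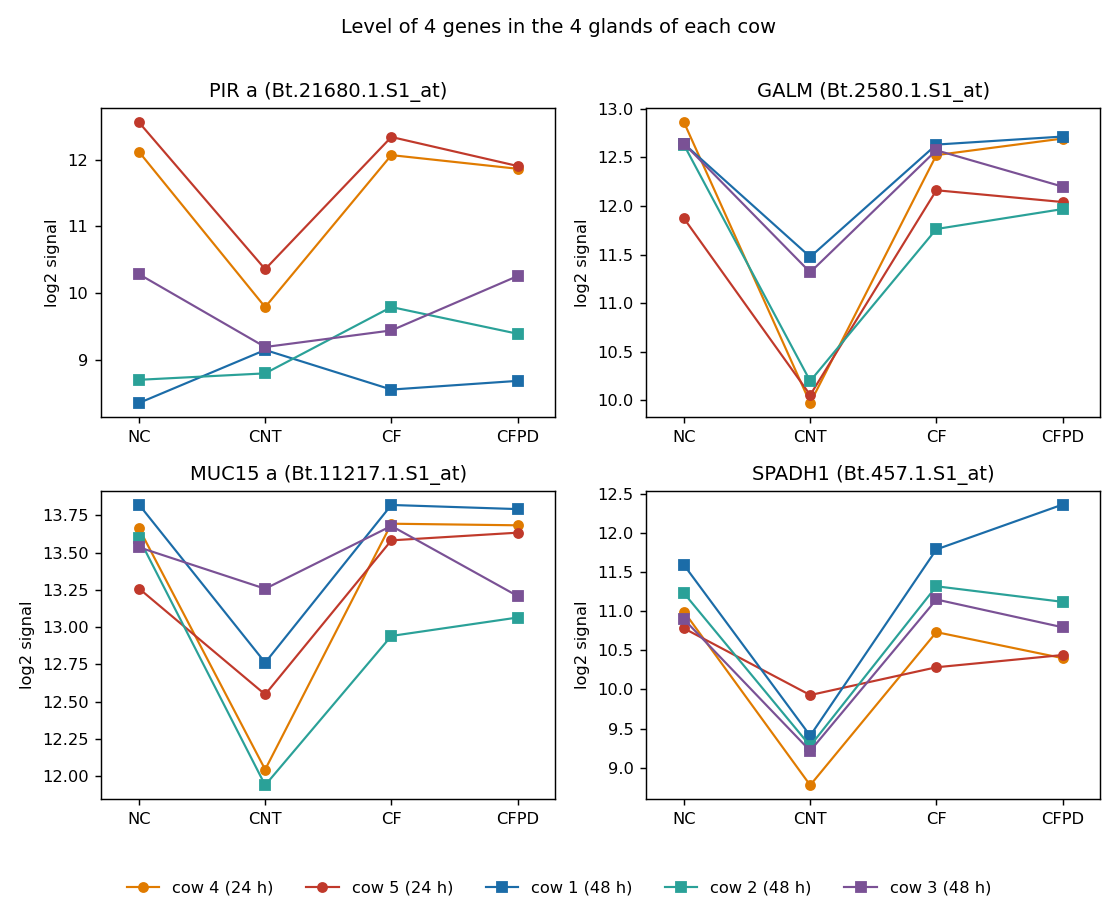
Log2 signal (vertical axis, a separate range in each panel) of the brightest probe set of PIR, GALM, MUC15 and SPADH1 in the NC, CNT, CF and CFPD gland (horizontal axis); each line joins the 4 glands of 1 cow, with circles for 24 h and squares for 48 h. GALM, MUC15 and SPADH1 dip at CNT in all 5 cows, while PIR dips in cows 3, 4 and 5 and lies far lower in the cows of 48 h.

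The level of PIR also split the cows by time point outside CNT. The 6 NC, CF and CFPD glands of 24 h read 11.86 to 12.56, and the 9 of 48 h read 8.36 to 10.28, without overlap and with means 2.87 apart. By size this was the 13th largest of 13486 differences in mean between the time points, and probe set b of PIR, with a difference of 3.17, was the 7th largest. Of all probe sets tested, 5.88% had every 24 h gland above every 48 h gland in the same groups. GALM, at 11.87 to 12.86 and 11.76 to 12.72, MUC15, at 13.26 to 13.69 and 12.94 to 13.82, and SPADH1, at 10.28 to 11.00 and 10.80 to 12.37, overlapped between the time points. The time points hold different cows, so time and animal cannot be told apart here, and no test was made.

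Treated glands stood above the NC gland in some cows and below it in others, with CF and CFPD of a cow often on the same side. By cow, their mean differed from NC by -0.76 to 0.23 for GALM and -0.59 to 0.35 for MUC15. For SPADH1 it ran from -0.43 to 0.49 and for PIR from -0.44 to 0.89. GALM was lower in CF and CFPD together than in NC by -0.20 on the log2 scale over the 5 cows (SE 0.16, 95% interval -0.54 to 0.13, or 0.69- to 1.10-fold). For MUC15 the difference was -0.07 (SE 0.16, 95% interval -0.40 to 0.27), for SPADH1 -0.06 (SE 0.18, 95% interval -0.46 to 0.34) and for PIR 0.03 (SE 0.22, 95% interval -0.44 to 0.49). These intervals, of the brightest probe sets, include 0 for each gene, and the largest difference they leave room for is that of GALM, at -0.54. The interval of probe set b of MUC15, given below, reached -0.59. In limma's moderated test, with the cow in the model, no member probe set was called, that is, had an adjusted p under 0.05 together with a log2 difference of 1 or more in size, where 0% of the 13486 probe sets tested were called in either direction. At an unadjusted p under 0.05, 338 of those probe sets differed and no member did. The NC and treated arrays also took part in the choice of the genes, so this comparison is not independent of it.

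**Figure D2:**
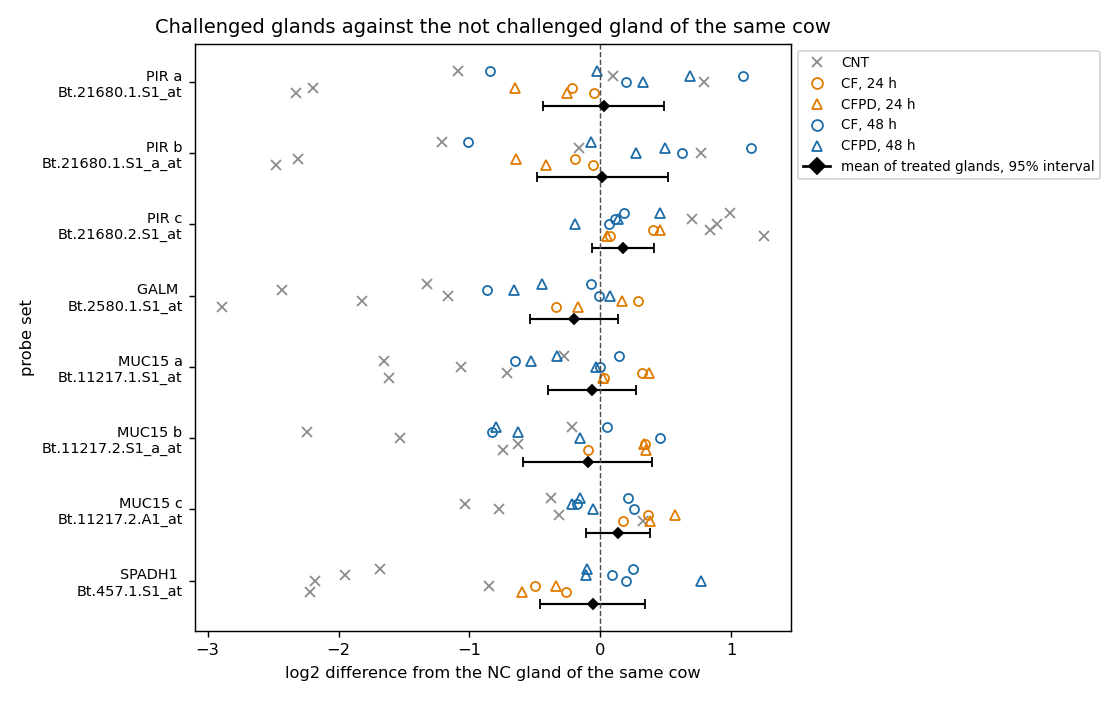
Log2 difference (horizontal axis) of each challenged gland from the NC gland of the same cow for the 8 probe sets (vertical axis); crosses are CNT, open circles CF and open triangles CFPD, in orange for 24 h and blue for 48 h, and black diamonds with bars give the mean of treated glands over 5 cows with its 95% interval. All 8 intervals include 0, and the CNT crosses of GALM and SPADH1 lie left of their treated glands.

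Of 10 treated glands, 3 stood above the NC gland of their cow for GALM, 5 for MUC15, 4 for SPADH1 and 4 for PIR. CF and CFPD of a cow share its NC gland, so these are not 10 independent comparisons. Counts of treated glands at 24 h rest on the NC glands of cows 4 and 5 alone. An exact permutation test, two-sided, that exchanged the NC, CF and CFPD glands within cows gave p = 0.16 for GALM, p = 0.61 for MUC15, p = 0.72 for SPADH1 and p = 0.92 for PIR (n = 5 cows, all arrangements drawn, smallest possible p = 0.0041). It takes these glands as exchangeable, although NC was always a front gland and CF and CFPD were rear glands. By time point, no member was called either. GALM differed by -0.01 at 24 h and by -0.33 at 48 h, and MUC15 by 0.19 and -0.23. PIR stood below NC in 4 of 4 treated glands at 24 h, by -0.29 (SE 0.21, 95% interval -0.79 to 0.21), and above it by 0.24 at 48 h (SE 0.44, 95% interval -0.73 to 1.21), so its pooled value joins opposite directions. The difference between these was 0.53 (95% interval -0.41 to 1.48), and probe set b of PIR stood at -0.33 and 0.24. For probe set b, CFPD glands alone stood at -0.53 from NC glands at 24 h (95% interval -0.97 to -0.09, not called, limma adjusted p = 1), a value that rests on the labels of cow 5. SPADH1 stood below NC in 4 of 4 treated glands at 24 h, by -0.42 (SE 0.31, 95% interval -1.16 to 0.31). At 48 h it stood above NC by 0.18 (SE 0.30, 95% interval -0.48 to 0.85). These intervals come from the fits without the cow. By cow, the mean of the treated glands differed from NC by -0.43 and -0.42 at 24 h and by 0.49, -0.01 and 0.08 at 48 h. For SPADH1 the difference between the time points, 0.61, had a 95% interval of -0.21 to 1.42, and no probe set of the array was called for a difference between the time points, with 282 at an unadjusted p under 0.05.

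Cow 2 set the treated glands of GALM and MUC15 lowest. Its CF and CFPD glands stood -0.87 and -0.66 from its NC gland for GALM and -0.65 and -0.53 for MUC15, while they stood 1.09 and 0.69 above it for PIR and 0.09 above and -0.11 from it for SPADH1. In the same glands the neutrophil markers averaged 0.03 and 0.18 above NC and the epithelial markers 0.47 and 0.40 above it. Among treated glands the neutrophil average stood farthest above the NC gland of the same cow in the CFPD gland of cow 3, by 0.90, with 7.61 against 6.70. There GALM stood at -0.44, MUC15 at -0.33, SPADH1 at -0.10 and PIR at -0.02 from NC. The part of these cells in the levels was not tested. Without cow 2 the pooled difference was -0.06 for GALM, 0.07 for MUC15 and -0.19 for PIR.

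The intervals of the difference between CFPD and CF glands included 0 for each of the genes. The difference of CFPD from CF over 5 cows was -0.01 for GALM (95% interval -0.40 to 0.38), -0.07 for MUC15 (-0.45 to 0.32), -0.03 for SPADH1 (-0.49 to 0.43) and -0.02 for PIR (-0.56 to 0.52). No probe set of the array was called in this comparison (limma, adjusted p under 0.05), and 166 had an unadjusted p under 0.05. These values rest on the deposited labels. With those of cows 2 and 5 exchanged, the difference for PIR was 0.31 and was not called.

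The probe sets of a gene did not all move alike. For PIR, probe set b followed probe set a closely (r = 0.99 over 20 arrays after each cow's mean was taken away), with CNT differing from NC by -2.39 at 24 h and -0.20 at 48 h. At 48 h probe set b exceeded the array's median on 3 arrays, none of them CNT. It thus just passed the filter there, and its values of 48 h lie at low signals. Probe set c ran the other way (r = -0.61 with a). It read 6.06, 7.31, 6.14 and 6.11 in cow 4 and 5.52, 6.36, 5.93 and 5.98 in cow 5 in NC, CNT, CF and CFPD glands. At 48 h it read 6.27, 7.16, 6.34 and 6.08 in cow 1, 6.06, 6.76, 6.17 and 6.20 in cow 2, and 5.88, 6.87, 6.06 and 6.34 in cow 3. CNT was the highest gland in 5 of 5 cows and by 0.70 to 1.25 above NC, and 9 of 10 treated glands stood above NC, with a mean difference over all 10 of 0.17 (exact permutation test, two-sided, p = 0.053, n = 5 cows). This probe set exceeded the array's median on 2 of 20 arrays and did not pass the filter on low signals, and which transcript it reads was not tested.

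For MUC15, the dimmer probe sets followed the brightest only in part. Probe set b read 8.39, 7.65, 8.30 and 8.74 in cow 4, 8.71, 8.09, 9.05 and 9.05 in cow 5, 9.94, 8.40, 10.39 and 9.78 in cow 1, 9.68, 7.43, 8.85 and 9.04 in cow 2, and 8.83, 8.61, 8.88 and 8.03 in cow 3. CNT was below NC in 5 of 5 cows, by a mean of -0.68 at 24 h and -1.33 at 48 h, and treated glands differed from NC by -0.10 (95% interval -0.59 to 0.40). Probe set c, which ran from 6.10 to 7.49 and passed the filter at 48 h only, had CNT below NC in 4 of 5 cows, the exception being cow 4, at 0.33 above. Its treated glands differed from NC by 0.14 (95% interval -0.11 to 0.38).

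**Figure D3:**
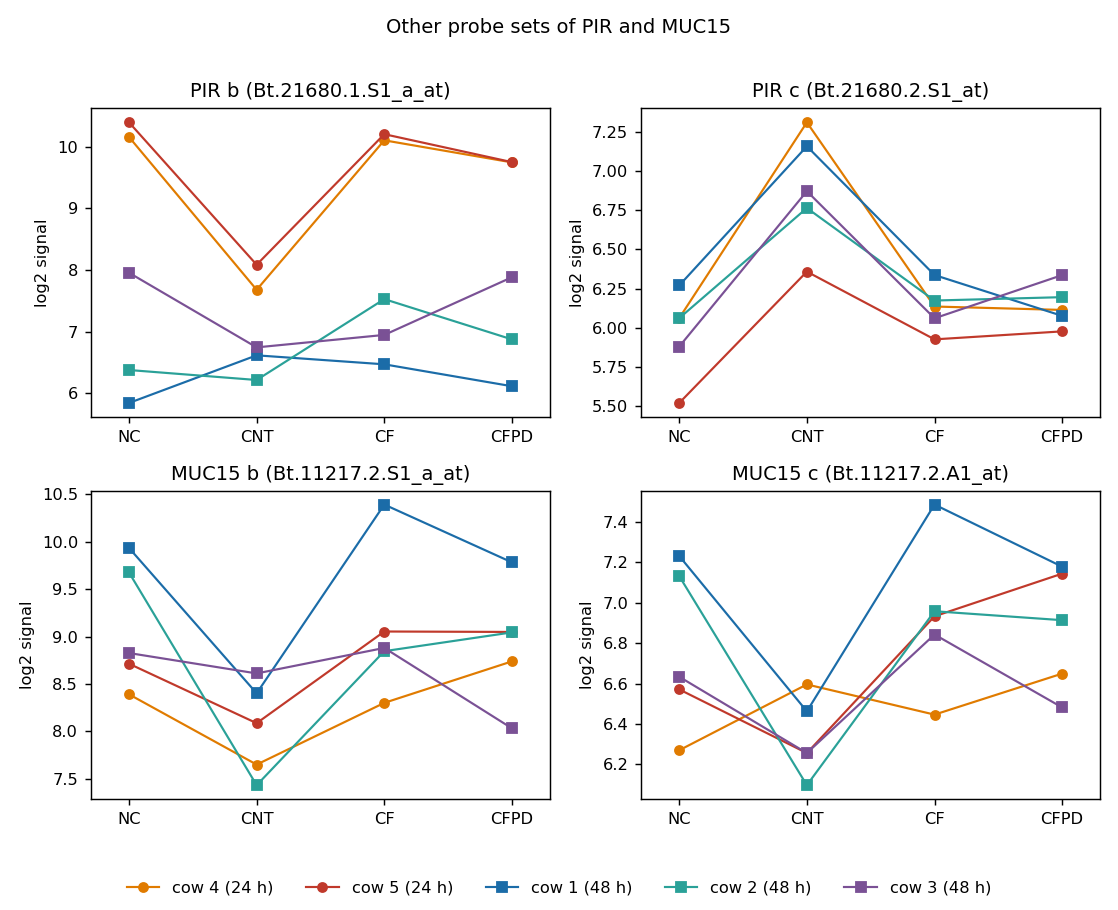
Log2 signal (vertical axis, a separate range in each panel) of the other probe sets of PIR (top) and MUC15 (bottom) in the NC, CNT, CF and CFPD gland (horizontal axis), 1 line per cow, circles for 24 h and squares for 48 h. Probe set c of PIR peaks at CNT in all 5 cows, while probe set b is lowest at CNT in cows 2, 3, 4 and 5.

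As calls, which rest on the contrast that chose the genes and are given with nothing read from them, 4 of 6 member probe sets tested were lower in CNT than in NC glands at 24 h, where 0.769% of all probe sets tested were called lower, and 2 of 7 at 48 h, where 0.515% were. Over both times, with the cow in the model, 5 of 7 were called lower, against 1.16%. At 24 h these were GALM, the brightest probe set of MUC15 and both brighter probe sets of PIR, and at 48 h GALM and SPADH1. In treated against CNT glands 4 of 6 were called higher at 24 h and 2 of 7 at 48 h, against 0.915% and 0.392% of all probe sets. These comparisons share the CNT arrays. The calls leaned on few arrays: leaving out 1 cow left 0 to 1 member called lower at either time point, and leaving out 1 NC, CF or CFPD array left 0 to 3 at 24 h and 0 to 2 at 48 h, each NC array by itself taking both time points to 0 or 1.

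The Leloir pathway turns galactose into glucose phosphates, and in the lactating gland UDP-galactose from it and from UDP-glucose feeds lactose synthesis. The 4 genes were chosen for a lower level in CNT glands, so their place in this and the next lists follows from the choice, and the lists are given for the other genes. Of the other 14 genes of this list measured, none was called lower in CNT than in NC glands at either time point, and UGDH, which oxidizes UDP-glucose to UDP-glucuronate, was the only one called higher, by 2.44 at 24 h (SE 0.19, limma adjusted p = 0.0057) and 2.45 at 48 h (SE 0.34, limma adjusted p = 0.0048). Of all probe sets tested, 1.62% were called higher in CNT at 24 h and 2.15% at 48 h. The list's median difference was 0.01 at 24 h and 0.02 at 48 h, against -0.01 and 0.13 over all probe sets tested. GALK1, galactokinase, which acts on the product of GALM, differed by -0.06 and -0.52, and B4GALT1, the catalytic subunit of lactose synthase, by -0.20 and 0.02, none of them called. LALBA, its regulatory partner alpha-lactalbumin, differed by -0.15 and -0.33 and was not called. Its CNT gland stood below NC in every cow, by -0.09 in cow 5 and by -0.51 in cow 1 at the extremes. Its signals lay near the top of the scale. In treated against NC glands 0 of the 15 were called, with differences from -0.18 to 0.19 at 24 h and from -0.33, that of GALM, to 0.30 at 48 h.

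Among 10 measured membrane mucins and proteins of the milk fat globule membrane, 3 besides MUC15 were called lower in CNT glands at 24 h. These were BTN1A1, butyrophilin, the main receptor-like protein of the globule membrane, at -1.28 (SE 0.20, limma adjusted p = 0.032), CIDEA, a lipid droplet protein, at -1.23 (SE 0.24, limma adjusted p = 0.046), and CD36, a fatty acid transporter, at -1.22 (SE 0.14, limma adjusted p = 0.015). At 48 h 0 of 10 were called: CIDEA differed by -1.44 (SE 0.63), CD36 by -0.78 and BTN1A1 by -0.51. The median was -0.47 at 24 h and -0.55 at 48 h. In treated glands 0 of 10 were called against NC, and the medians were 0.06 and -0.10.

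Among the CUB domain genes other than SPADH1, those called were all higher in CNT glands. TNFAIP6, a hyaluronan-binding protein induced in inflammation, was called higher in CNT glands at 24 h, by 2.34 (SE 0.44, limma adjusted p = 0.046), and the complement proteases C1R and C1S were higher at 48 h by 1.91 (SE 0.25, limma adjusted p = 0.0040) and 1.30 (SE 0.22, limma adjusted p = 0.012). Of the list, SPADH1 included, 6 genes were tested at 24 h and 5 at 48 h. None was called in treated against NC glands.

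Of 20 NRF2 target genes tested at 24 h, 18 had the higher mean in CNT, PIR at -2.26 was 1 of the other 2, and TXN, thioredoxin, the only one called higher, by 1.23 (SE 0.20, limma adjusted p = 0.033). At 48 h 3 of 18 were called higher: HMOX1, heme oxygenase, by 1.94 (SE 0.44, limma adjusted p = 0.035), SRXN1, sulfiredoxin, by 1.83 (SE 0.34, limma adjusted p = 0.016), and GSR, glutathione reductase, by 1.37 (SE 0.33, limma adjusted p = 0.042). PIR, at -0.07, lay within the range of the list at 48 h, from -0.59 to 1.94, where 14 of 18 had the higher mean in CNT. The list's median was 0.47 at 24 h and 0.52 at 48 h, against -0.01 and 0.13 over all probe sets tested. The share of all probe sets with the higher mean in CNT was not counted. Of NF-kB subunits and inhibitors, 0 of 8 were called at 24 h and 0 of 7 at 48 h, with NFKB1, which gives the p50 subunit, at 0.75 and 0.82, and NFKB2 at 0.85 at 24 h. Neither list had a member called in treated against NC glands.

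**Figure D4:**
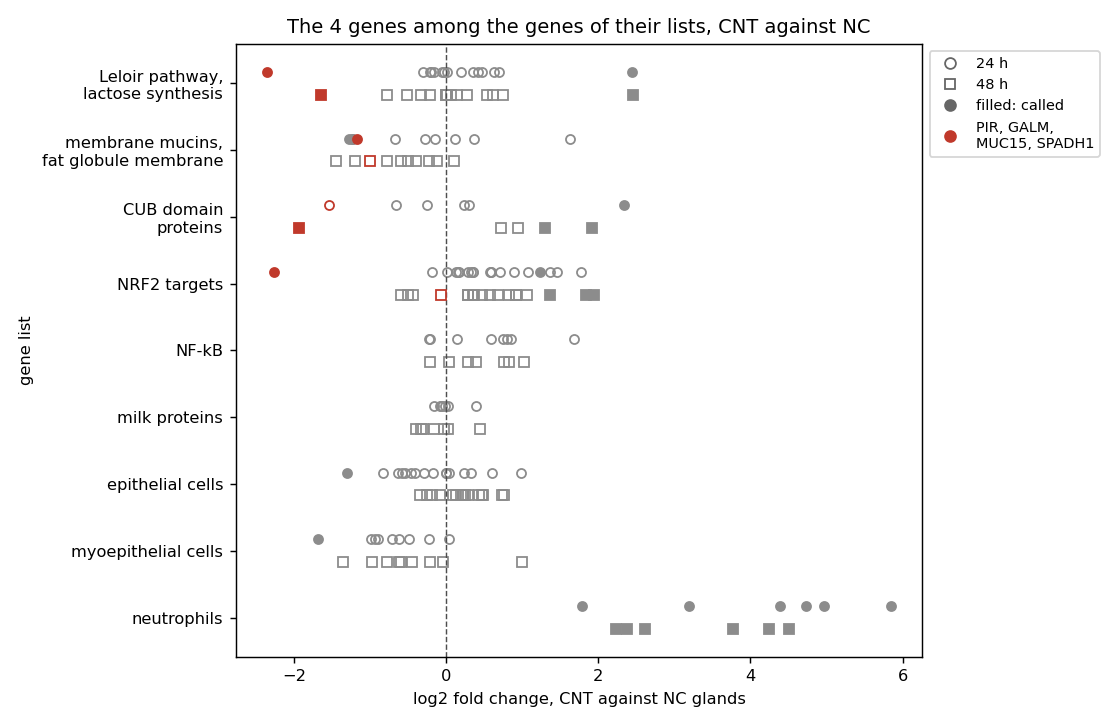
Difference between CNT and NC glands as a log2 fold change (horizontal axis) of the genes of 9 lists (vertical axis), circles for 24 h and squares for 48 h, filled where called by limma, with PIR, GALM, MUC15 and SPADH1 in red. The place of the red points follows from how these genes were chosen. The neutrophil genes lie between 1.79 and 5.85.

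The marker lists moved as follows beside these genes. Neutrophil markers were called higher in CNT for 6 of 6 genes tested at both time points, with medians of 4.56 and 3.19. Of the 8 milk protein genes, whose signals averaged close to the top of the scale, only 7 were among the probe sets tested. Of these 0 were called, with medians of -0.05 and -0.16. Of 16 epithelial markers 1 was called lower at 24 h, the keratin KRT19, at -1.31 (SE 0.24, limma adjusted p = 0.042), and 0 at 48 h, with medians of -0.23 and 0.22. Of 9 myoepithelial markers CNN1, calponin of the contractile cells, was called lower at 24 h, at -1.68 (SE 0.31, limma adjusted p = 0.042), and 0 at 48 h, with medians of -0.72 and -0.59. The part of cell composition in the levels of PIR, GALM, MUC15 and SPADH1 was not tested.

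Across the 20 arrays, after each cow's mean was taken away, GALM and MUC15 varied together most closely among the 4 genes (r = 0.96), and did so also over the 15 arrays without CNT (r = 0.88). Of these 15 arrays, those of cow 2 lay widest apart for both genes, with CF at -0.87 from NC for GALM and -0.65 for MUC15. The r without cow 2 was not computed. SPADH1 had r = 0.83 with GALM and 0.82 with MUC15 over all arrays, but 0.06 and -0.07 without the CNT arrays. PIR had r = 0.69 with GALM and 0.52 with MUC15 over all arrays, and -0.64 and -0.85 without CNT. These arrays share the cow and, in part, the low CNT value that chose the genes, so the coefficients are a description.

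The genes nearest to each in that measure, among 8151 with 1 symbol, were as follows. GALM was nearest to HLF, a transcription factor of the PAR bZIP family (r = 0.98), RTN3, a reticulon of the endoplasmic reticulum (0.97), LPL, lipoprotein lipase (0.96), and WIPI1, an autophagy protein (0.96). MUC15 was nearest to CD36 (r = 0.97), LPL (0.96), CIDEA (0.96) and HLF (0.96). SPADH1 was nearest to GPAT4, an acyltransferase of triglyceride synthesis (r = 0.95), VIPR2, a receptor of vasoactive intestinal peptide (0.94), DVL1, a Wnt signal transducer (0.94), and LALBA (0.93). Over the 15 arrays without CNT, SPADH1 had r of only 0.43 with GPAT4, 0.67 with VIPR2, 0.37 with DVL1 and 0.33 with LALBA. PIR was nearest to KRT19 (r = 0.97), DHRS3, a retinaldehyde reductase (0.93), NCAPH, a condensin subunit (0.92), and FAM234A (0.92). Only GALM and MUC15 had genes in common here, LPL and HLF, and neither SPADH1 nor PIR shared any. Without the CNT arrays, r with the genes named ran from 0.65 to 0.88 for GALM, 0.72 to 0.94 for MUC15 and 0.65 to 0.86 for PIR.

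KRT19, a keratin of simple epithelia, varied with PIR within cows at both time points. It was picked for the highest r with PIR in these same arrays, so this agreement follows from the choice and is a description. Its log2 signal in NC, CNT, CF and CFPD glands was 14.64, 13.32, 14.27 and 14.48 in cow 4 and 14.31, 13.02, 14.13 and 13.91 in cow 5. At 48 h it was 12.93, 13.35, 12.98 and 13.18 in cow 1, 13.71, 13.79, 14.15 and 13.90 in cow 2, and 14.22, 13.49, 13.85 and 14.20 in cow 3. The CNT gland stood above NC in cows 1 and 2 for both genes and below it in cows 3, 4 and 5. In treated against NC glands KRT19 differed by -0.28 at 24 h (SE 0.20) and 0.09 at 48 h (SE 0.33), and was not called.

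**Figure D5:**
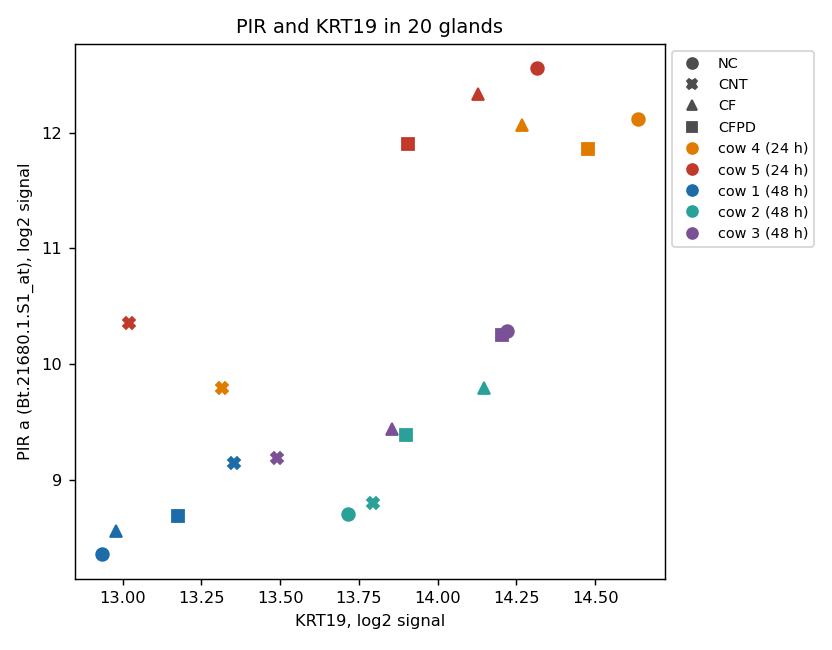
Log2 signal of PIR (vertical axis, probe set a) against that of KRT19 (horizontal axis) in the 20 glands, with the group by marker shape and the cow by colour. Within a cow the glands lie along a rising line, which follows from the choice of KRT19 by its r with PIR. The NC, CF and CFPD glands of 24 h, with PIR at 11.86 or higher, lie above all others.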

How the data were processed

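RNA of 20 glands of 5 cows was hybridised to 1 Affymetrix Bovine array each. The deposited log2 values were computed by the authors with RMA (background correction, quantile normalization, summarization) in the Bioconductor package affy; versions are not given in the sources used here. Groups, cows and times come from the labels, with the cows renumbered 1 to 5. Symbols come from the platform's annotation: 13318 probe sets have 1 symbol, 86 several and 10724 none. The members and gene lists were chosen with earlier results of these data known.

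After leaving out 112 controls, probe sets above the array's median on at least 2 arrays at 24 h (13004) or 3 at 48 h (13000) were fitted per time point with limma 3.58.1 in R 4.3.3, all 4 groups together and without the cow, since the study's methods name none. Residual degrees of freedom were 4 and 8, with a prior of 3.05 and 3.38. Values over 5 cows come from 1 fit of 20 arrays with the cow as a term (13486 probe sets). Calls needed a Benjamini-Hochberg adjusted p under 0.05 together with a log2 fold change of 1 or more in size. Glands of a cow come from the same animal and deviated together (r averaged 0.51 over pairs of 24 h and 0.44 over those of 48 h; lowest 0.32 and 0.043). The few arrays limit the precision.

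Named beside the members were, per member, the 4 genes with the highest r after each cow's mean was taken away and, per list, up to 4 called genes with the largest CNT against NC change or else the first 2 measured; GALK1, B4GALT1 and LALBA were added after their values were seen, as the steps around GALM. A gene is given by its probe set with the highest mean. Alternatives were the cow as a block or not, 1 fit of all arrays, other filters, median centring, quantile normalization per time point, another prior, no minimum fold, no CNT arrays, each cow and each NC, CF or CFPD array left out, and exchanged CF and CFPD labels. No sequences of the probe sets were used here.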

Additional observations from a re-analysis of the deposited data

Results flagged for a closer look

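Of the 8 probe sets, probe set c of MUC15 (the dimmest) differed between the time points in how CFPD stood to CF: CFPD was above CF in both cows of 24 h and below it in all 3 cows of 48 h, a difference of -0.45 on the log2 scale between the time points (95% interval -1.02 to 0.13 in the fit with the cow, where it was not called). The signal of this probe set was low: it exceeded the array's median on 0 arrays at 24 h, where it did not pass the filter. At 48 h it did so on 3 arrays, all of cow 1. In cow 2 the difference of CFPD from CF was only -0.04. Cow 5 is 1 of the cows whose CF and CFPD labels are in doubt. With those labels exchanged, CFPD stands below CF in cow 5 and the opposite signs are lost.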

How the results depend on the processing

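No member was called between treated and NC, CF and NC, CFPD and NC or CFPD and CF glands, or for a difference in time, in any of the 238 counts under the alternatives, whose single values did not pass either (441 values, of which 40 turned sign). Turned were the difference of treated from NC for GALM at 24 h after quantile normalization (0.010) and that of CFPD from CF over both times for GALM after quantile normalization (0.019) and, with the labels of cows 2 and 5 exchanged, for PIR (0.31, and 0.27 for probe set b). That exchange was chosen after seeing the data: the planned one named these cows 1 and 4, after another numbering, and was not run under these numbers. Without the replicate block 3 in place of 5 members were lower in CNT over both times; adding it at 24 h gave 5 in place of 4 and at 48 h 3 in place of 2, and it changed no other count.

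With 1 cow or array left out, lower calls in CNT ranged from 0 to 3 at 24 h, from 0 to 2 at 48 h and from 3 to 5 over both times. Treated against NC glands ranged at 24 h from -0.51 to 0.48 for GALM and from -0.014 to 0.39 for MUC15, at 48 h from -0.14 to 0.83 for PIR (-0.20 to 0.86 for probe set b), from -0.050 to 0.36 for SPADH1 and from -0.21 to 0.094 for probe set c of MUC15. Over both times they ranged from -0.19 to 0.14 for PIR (-0.19 to 0.16 for b), from -0.17 to 0.067 for MUC15 (-0.20 to 0.062 for b) and from -0.20 to 0.033 for SPADH1. CFPD against CF ranged from -0.23 to 0.085 for PIR, -0.061 to 0.084 for GALM, -0.11 to 0.034 for MUC15 (-0.32 to 0.0054 for b, -0.13 to 0.016 for c) and -0.18 to 0.050 for SPADH1. Where a cow of 24 h was left out, the lone array per group was assumed to vary like the other groups in a fit of all arrays. The causes were not tested, and with 2 or 3 cows per time point the intervals of treated against NC glands reached as far as -1.32 and 1.26 (probe sets b of MUC15 and PIR at 48 h).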
